A study of Mus musculus with 7 samples.

Results

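The Rab GTPases are the small GTP-binding proteins that direct membrane vesicles between the compartments of a cell. Their genes were taken by name, as every probe set with a single gene symbol made of Rab, a number and at most one letter from a to d. The rule gave 132 of the 45101 probe sets on the array and 59 of the 18193 genes, each gene being read from the probe set whose mean log2 signal over the 7 arrays was highest. No measured difference between groups entered this choice. The rule used the symbols of the platform annotation, and all 59 gene IDs were found in RefSeq under the same symbol.

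Each Rab protein cycles between a GDP-bound form held in the cytosol and a GTP-bound form on one kind of membrane. Exchange factors load GTP, GTPase-activating proteins speed its hydrolysis, and escort and extraction proteins carry the lipid-modified protein to and from membranes. In macrophages and microglia Rab proteins are known for the steps that take a phagosome from the cell surface to the lysosome.

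The samples were brain macrophages of mice, isolated after papain digestion by sorting for GFP and the surface marker F4/80, with biotin-labelled cRNA hybridised to Affymetrix arrays. The Gl261 group held 4 arrays of macrophages from tumours of Gl261, a mouse glioma cell line, which had grown for 21 days after injection into the brains of C57/Bl6 mice that had received GFP bone marrow. The normal brain group held 3 arrays of macrophages from brains of C57/Bl6 mice 8 weeks old without a tumour. Whether GFP marrow was also present in the normal brain mice, and at what age the tumour-bearing mice were taken, is not given in the labels, and both can differ between the groups. They also do not say whether arrays came from separate mice, so p-values measure only the spread between these arrays, and their number limits the precision.

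Macrophage genes were present in both groups, as the sort label says. All 10 macrophage identity genes on the list, among them Adgre1, which encodes F4/80, were above background on every array. Their summed linear signal was 57656 to 79349 in Gl261 and 67116 to 81450 in normal brain. Of these 10 genes 1 was called (10%, beside 10.1% of all tested genes). It was Mertk, higher in Gl261 without overlap (limma log2 fold change 1.06, adjusted p = 0.0243). Adgre1 lay lower in Gl261 without overlap (-0.39, limma adjusted p = 0.0814) and was not called. Other marker lists also differed between the groups. Of 8 tested microglia genes 7 were lower in Gl261, with summed signals of 18206 to 25241 in Gl261 and 36579 to 43130 in normal brain. Neutrophil genes summed to 16416 to 22805 in Gl261 and 39599 to 50865 in normal brain, with 6 of 6 tested genes lower, and Elane was above background on no Gl261 array. Genes of B and plasma cells had 4 of 4 tested members lower, and genes of cell division had 3 of 5 higher. Over all tested genes 4.2% were lower and 5.92% higher by the same test. Erythroid genes summed to 68.0, 4439, 118 and 194 in Gl261 replicates 1 to 4, so that replicate 2 stood apart, against 9406 to 16064 in normal brain. In bulk RNA of this kind, fewer cells of a type and less RNA per cell cannot be told apart. How far these differences in cell content carry over to any Rab gene was not tested.

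The family as a whole did not stand apart from other genes. Expression was analysed as log2(signal + 6) and tested with limma over 12125 genes whose mean was above a low-signal cutoff, and a gene is called where the Benjamini-Hochberg adjusted p over all tested genes is under 0.05. All log2 fold changes are Gl261 minus normal brain. Of the 59 Rab genes 51 were tested and 5 were called, which is 9.8% beside 10.1% of all tested genes. Rab20 and Rab9 were higher in Gl261, 3.92% of the tested Rab genes beside 5.92% of all genes. Rab6b, Rab39 and Rab38 were lower, 5.88% beside 4.2%. An unadjusted p under 0.05 in limma was reached by 11 Rab genes. The share over all tested genes was not counted, so this number says nothing about the family. The median log2 fold change was 0.07 over the Rab genes and 0.04 over all tested genes, and the median size of the change was 0.40 in both. The 4 Gl261 and 3 normal brain values did not overlap for 10 Rab genes. Of these 7 were higher in Gl261 (13.7%, beside 13.1% of all genes) and 3 were lower (5.88%, beside 10.4%). Summed over the 59 genes, the linear signal was 96194, 97577, 111279 and 114208 in Gl261 and 94554, 104019 and 108507 in normal brain, and the groups overlapped.

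The promoters of the called genes Rab6b, Rab39 and Rab20 are shown because these kept their calls in most of the alternative settings that were run. They are the 250 bases before the annotated transcript start in RefSeq (GRCm38.p6), on the strand of the gene. Capitals mark matches to 4 motifs searched on both strands. These were an E-box of the kind bound by lysosomal regulators (CACGTG), the GC box (GGGCGG), the TATA box (TATAAA) and the core of sites of the macrophage factor PU.1 (GAGGAA).
Rab6b: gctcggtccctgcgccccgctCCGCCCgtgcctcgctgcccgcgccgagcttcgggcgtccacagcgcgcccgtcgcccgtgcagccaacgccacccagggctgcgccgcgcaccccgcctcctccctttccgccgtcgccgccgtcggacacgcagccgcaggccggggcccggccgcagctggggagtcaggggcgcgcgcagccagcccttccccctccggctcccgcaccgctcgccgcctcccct
Rab39: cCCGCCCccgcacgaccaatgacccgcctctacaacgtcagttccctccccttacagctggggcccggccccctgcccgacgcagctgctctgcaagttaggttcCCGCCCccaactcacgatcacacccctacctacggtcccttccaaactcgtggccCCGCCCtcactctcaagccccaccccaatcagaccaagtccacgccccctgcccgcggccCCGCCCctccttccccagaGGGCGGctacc
Rab20: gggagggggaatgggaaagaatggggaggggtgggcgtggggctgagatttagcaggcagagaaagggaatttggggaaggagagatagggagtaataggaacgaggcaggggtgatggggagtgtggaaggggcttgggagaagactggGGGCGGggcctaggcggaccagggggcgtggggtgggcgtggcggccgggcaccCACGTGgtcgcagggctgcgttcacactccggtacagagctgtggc
The Rab6b window is chr9:103111824-103112073 on the plus strand, with 1 GC box. The Rab39 window is chr9:53706233-53706482 on the minus strand, with 5 GC boxes. The Rab20 window is chr8:11478641-11478890 on the minus strand, with 1 GC box and 1 E-box. The reference table held 60 such windows for 48 Rab genes, and a GC box was in 66.7% of them, beside 32.7% of all 32851 windows. The E-box was in 8.33% of Rab windows and 6.02% of all. The TATA box was in 6.67% of Rab windows and 12.4% of all, and the PU.1 core in 13.3% and 23.3%. These are letter matches in a window and do not show that a factor binds there. Rab38 had no entry.

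Among the Rab genes of the endoplasmic reticulum and Golgi 15 were tested, 2 were lower and none was higher (13.3% called, beside 10.1% of all tested genes). With so few genes, the counts of this and the following groups are not read as results of a group. Rab6b, a close copy of Rab6a that is abundant in brain and acts in traffic from the Golgi back to the endoplasmic reticulum, had log2 signals of 7.03, 8.41, 7.76 and 8.15 in Gl261, against 9.95, 10.24 and 9.43 in normal brain. All Gl261 arrays were below all normal brain arrays, and the gene was lower by limma (log2 fold change -2.04, SE 0.39, adjusted p = 0.00845). It was called in 18 of 19 alternative settings, including without any 1 array, and lost its call where the probe sets of each gene were averaged (-1.21, adjusted p = 0.0963). Its 3 other tested probe sets gave -0.97, -0.73 and -1.12, each lower in Gl261 and none called by itself. Neuronal markers, set beside it because Rab6b is abundant in neurons, summed to 179, 392, 1102 and 616 in Gl261 and 350, 534 and 436 in normal brain. Of 6 tested neuronal genes 1 was higher (Tubb3) and none was lower. Stmn2, a neuronal gene under the low-signal cutoff, had 3.47, 4.51, 3.39 and 2.92 in Gl261, against 5.39, 7.14 and 5.72 in normal brain, and was above background on 1 of 4 Gl261 and 3 of 3 normal brain arrays. Stmn2, 1 of 10 listed neuronal genes, lay lower without overlap. Of the 6 tested neuronal genes 2 had positive and 4 had negative log2 fold changes. The summed signals of the list overlapped between the groups. The part of neuronal RNA in the Rab6b values was not tested.

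Rab6a, the widely expressed copy, had 11.55, 11.57, 11.73 and 11.56 in Gl261 and 11.74, 12.18 and 11.69 in normal brain. These values overlapped and the gene was not called (-0.27, 95% confidence interval -0.61 to 0.07). The log2 difference Rab6a minus Rab6b was therefore compared within arrays, as 1 of 13 pairs of Rab genes with the same number. It was 3.76 ± 0.60 in Gl261 (SD, n = 4) and 2.00 ± 0.23 in normal brain (SD, n = 3). The change was 1.77 with no overlap. The exact permutation p (two-sided) was 0.0286, the smallest that 35 splits allow, or 0.186 adjusted over the 13 pairs. The adjusted p could be under 0.05 only if most of the 13 pairs reached this smallest p, so it could not call a single pair. The difference also reuses the Rab6b values above and is not separate support for them. With the probe sets of each gene averaged the change was 0.96. The difference of Rab8a and Rab8b had the same p and adjusted p, with a change of 0.86, which was -0.05 with averaged probe sets. The other 11 pairs had exact permutation p-values of 0.114 or more.

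Rab39, a protein of the Golgi and of phagosomes that is known from macrophages, had 8.44, 8.13, 8.10 and 7.46 in Gl261, against 9.53, 10.08 and 9.18 in normal brain. The groups did not overlap and the gene was lower (limma log2 fold change -1.56, SE 0.35, adjusted p = 0.0185). The call was kept in 15 of 19 alternative settings and was lost, among others, without normal brain replicate 2 (adjusted p = 0.0638) and without Gl261 replicate 3 (0.0507). It had 1 probe set, so no second one could be set beside it. The chosen probe set of Rab39b, a related gene known from brain, was under the low-signal cutoff.

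Rab19, which is located at the Golgi, had 9.20, 7.92, 9.09 and 7.67 in Gl261 and 6.33, 6.83 and 7.22 in normal brain. The groups did not overlap, with a log2 fold change of 1.67 (SE 0.50), yet the adjusted p in limma was 0.0552. It was called in 3 of 19 alternative settings, always higher. Rab1a, which carries vesicles from the endoplasmic reticulum to the Golgi, had one of the 6 probe sets of highest mean signal in the family. It had 12.47, 12.68, 12.96 and 13.14 in Gl261 and 12.79, 12.93 and 13.24 in normal brain, with overlap and a log2 fold change of -0.17. Rab2a had 12.28, 12.10, 12.26 and 12.14 in Gl261 and 11.92, 12.06 and 11.94 in normal brain. Its groups did not overlap, and the difference of 0.22 was not called. The other tested genes of this group (Rab1b, Rab2b, Rab12, Rab18, Rab30, Rab33b, Rab36, Rab42 and Rab43) had log2 fold changes of -0.65 (Rab42) to 0.57 (Rab12), and none was called.

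**Figure D1:**
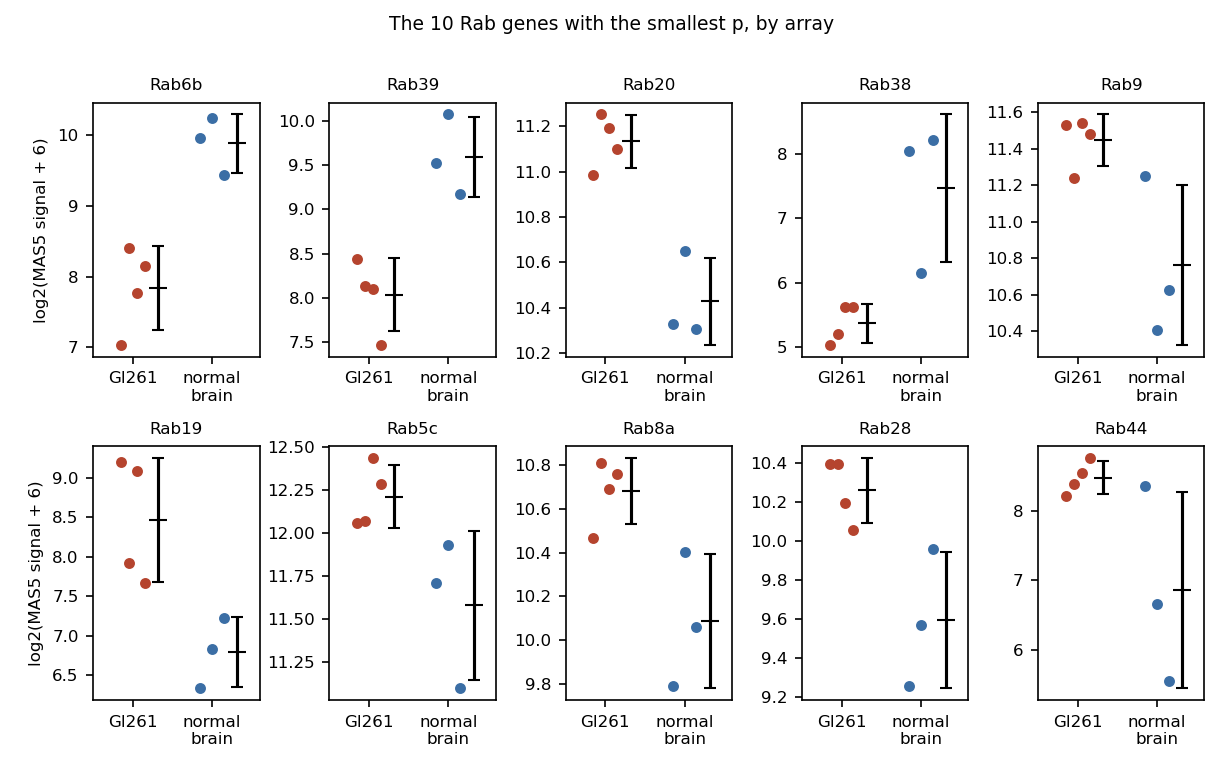
Log2(MAS5 signal + 6) on each array for the 10 tested Rab genes with the smallest p, Gl261 in red and normal brain in blue, with mean and SD in black (4 and 3 arrays, axes do not start at 0). Rab6b, Rab39 and Rab38 lay lower on every Gl261 array, Rab20 lay higher on every Gl261 array, and Rab9 and Rab44 overlapped.

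Of the 7 tested Rab genes of the early endosome and young phagosome 1 was called, higher in Gl261 (14.3%, beside 10.1% of all tested genes). Rab20, which acts in the maturation of phagosomes and is known to be induced by interferon-gamma in macrophages, had 10.99, 11.25, 11.19 and 11.10 in Gl261, against 10.33, 10.65 and 10.30 in normal brain. The groups did not overlap, and the gene was higher (limma log2 fold change 0.71, SE 0.16, adjusted p = 0.0193, a ratio of 1.63). The call was kept in 14 of 19 alternative settings. It was lost without Gl261 replicate 3 (adjusted p = 0.0625) and without normal brain replicate 3 (0.0514), while the log2 fold change stayed between 0.62 and 0.82 in all 19.

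The Rab5 genes, whose proteins drive the fusion of early endosomes, were not called. Rab5c had 12.06, 12.07, 12.44 and 12.28 in Gl261 and 11.71, 11.93 and 11.09 in normal brain, without overlap (0.63, SE 0.20, limma adjusted p = 0.0626). Rab5a also did not overlap, with 11.29, 11.22, 11.26 and 11.29 in Gl261 and 11.03, 10.88 and 11.15 in normal brain, a difference of 0.25 (adjusted p = 0.3 in limma). Rab5b varied too much between arrays to be read, from 5.72 to 7.42 in Gl261 and 4.80 to 7.33 in normal brain. Rab22a, which acts on early and recycling endosomes, had a log2 fold change of 0.53 (95% confidence interval 0.04 to 1.02, adjusted p = 0.156 in limma). A further probe set gave 0.48 and 2 of lower signal gave -0.99 and -0.24, and the mean of its probe sets was at -0.06, so no direction can be given. Rab21 was at 0.05 and Rab31 at -0.04.

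No Rab gene of recycling and delivery to the cell surface was called by limma, of 13 tested (0%, beside 10.1% of all tested genes). An unadjusted p under 0.05 was reached by 1 (Rab8a), and the share over all genes was not counted. The probe sets of Rab8b, Rab14 and Rab11b were among the 6 of highest mean signal in the family. Rab8b, which acts in exocytosis, had 12.78, 12.95, 13.22 and 13.28 in Gl261 and 13.17, 13.28 and 13.49 in normal brain (log2 fold change -0.26, but 0.44 with averaged probe sets). Rab14, which moves cargo between the Golgi and endosomes, had 12.63, 12.52, 12.94 and 12.99 in Gl261 and 12.77, 12.87 and 12.99 in normal brain (-0.11). The values of both genes overlapped. Rab11b, a gene of recycling endosomes, had 12.21, 12.23, 12.53 and 12.47 in Gl261 and 12.26, 12.47 and 12.33 in normal brain. Its fitted change was 0.00, with a 95% confidence interval of -0.31 to 0.31. Rab10 was as close to 0 (0.01, interval -0.28 to 0.31), and for 23 of the 46 Rab genes not called this interval lay within a 2-fold change either way.

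Rab8a, which serves transport to the plasma membrane and the cilium, had 10.47, 10.81, 10.69 and 10.76 in Gl261 and 9.79, 10.40 and 10.06 in normal brain. The groups did not overlap (0.60, SE 0.19, limma adjusted p = 0.0705). Rab15 was at 1.36 with an SE of 0.67, and its signal was under background on normal brain replicate 2 (3.82). Its normal brain mean, 4.88, was under the cutoff of 4.93, so Rab15 was tested only through its Gl261 signal. The fitted changes of Rab4a, Rab4b, Rab11a, Rab13, Rab35, Rab40b and Rab40c lay between -0.76 (Rab40c) and 0.84 (Rab13).

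**Figure D2:**
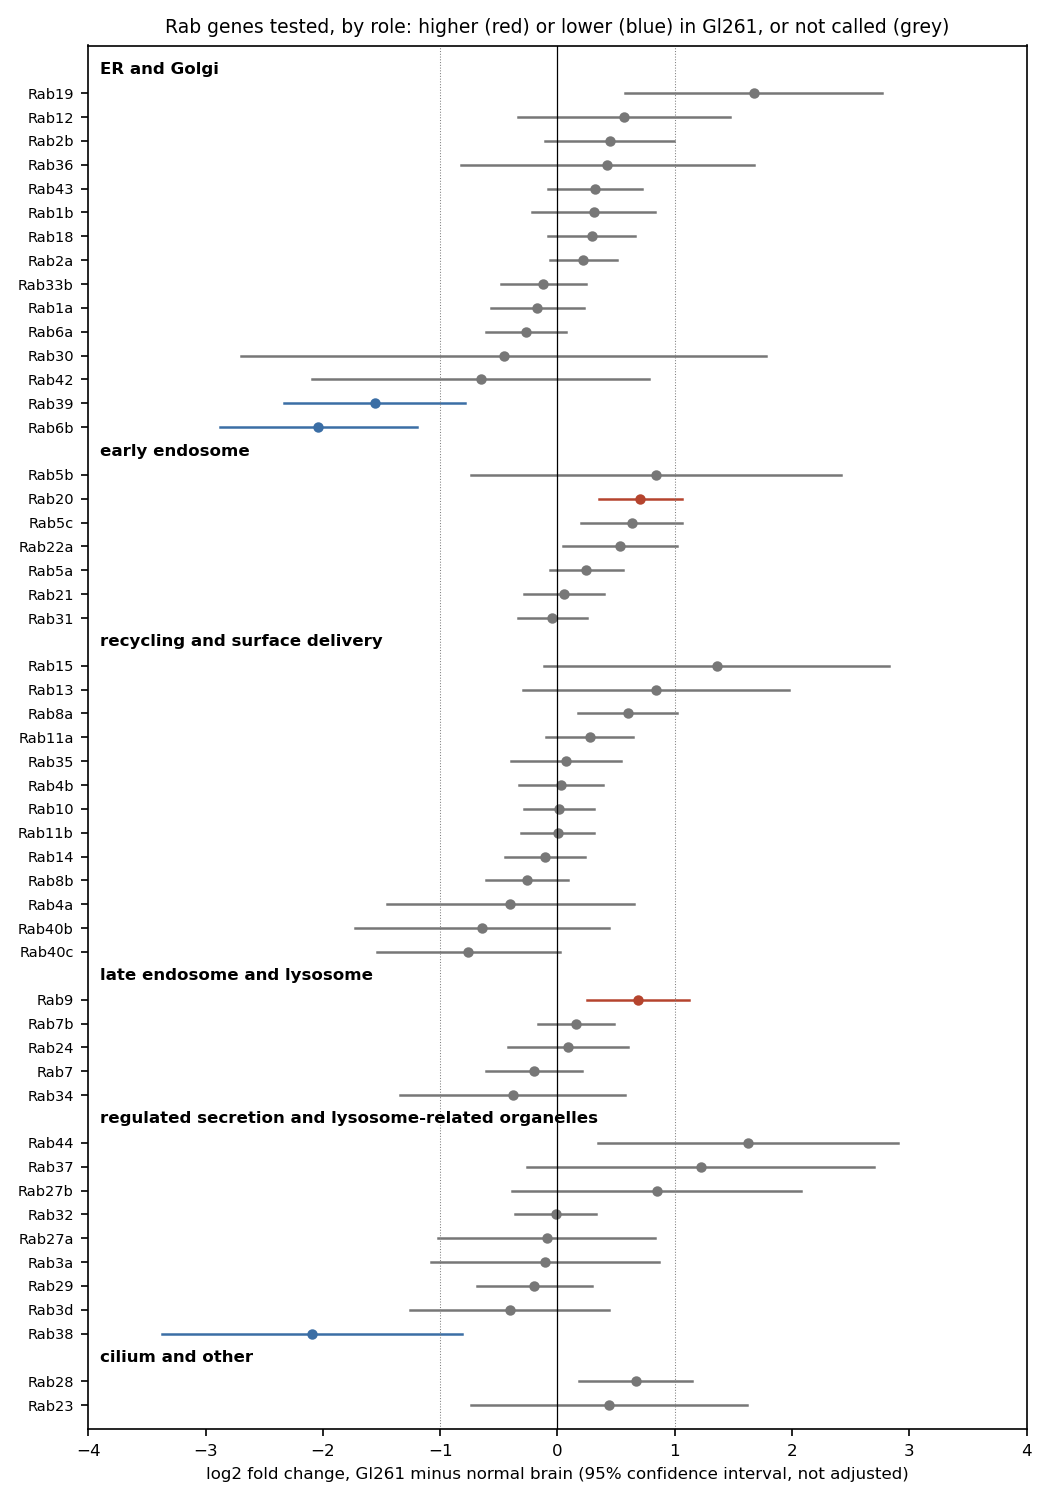
Log2 fold change, Gl261 minus normal brain, of the 51 tested Rab genes with 95% confidence intervals that are not adjusted for the number of genes, grouped by the step of traffic they serve. The 2 genes called higher (Rab20, Rab9) are red and the 3 called lower (Rab6b, Rab39, Rab38) are blue, and dotted lines mark log2 changes of -1 and 1.

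Of 5 tested Rab genes of the late endosome and lysosome 1 was called (20%, beside 10.1% of all tested genes). Rab9, which returns mannose 6-phosphate receptors from late endosomes to the Golgi, had 11.53, 11.24, 11.54 and 11.48 in Gl261 and 11.25, 10.40 and 10.63 in normal brain. Gl261 replicate 2 lay just under normal brain replicate 1, so the groups overlapped. The gene was higher at the edge of the threshold (limma log2 fold change 0.69, SE 0.20, adjusted p = 0.0498). The call was kept in 4 of 19 alternative settings and was lost in 6 of the 7 that left out 1 array, with the largest adjusted p without normal brain replicate 2 (0.51, adjusted p = 0.151).

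Rab7, the main Rab protein of fusion with the lysosome, had the probe set of highest mean signal in the family. It had 12.85, 12.95, 13.37 and 13.48 in Gl261 and 13.10, 13.43 and 13.57 in normal brain, with overlap and a log2 fold change of -0.20 (SE 0.19). Its second probe set gave the opposite picture, with 10.69, 10.77, 10.97 and 10.21 in Gl261 and 9.29, 9.58 and 9.08 in normal brain. Tested by itself it was higher in Gl261 (limma log2 fold change 1.34, adjusted p = 0.00889). The mean of both was also called higher (0.57, adjusted p = 0.0467), so no direction can be given for Rab7. Rab7b, a related gene of late endosomes known from macrophages, had 12.36, 12.60, 12.39 and 12.77 in Gl261 and 12.25, 12.39 and 12.48 in normal brain (0.16, not called). Rab24 was at 0.09 and Rab34 at -0.38.

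The Rab genes of regulated secretion and of lysosome-related organelles had 9 tested members, with 1 lower (11.1% called, beside 10.1% of all tested genes). Rab38, which with Rab32 sends enzymes to melanosomes and other lysosome-related organelles, had 5.04, 5.21, 5.62 and 5.63 in Gl261, against 8.04, 6.15 and 8.21 in normal brain. The groups did not overlap, though normal brain replicate 2 lay far nearer to the Gl261 arrays. The gene was lower (limma log2 fold change -2.09, SE 0.59, adjusted p = 0.043). The call was lost in 12 of 18 alternative settings and without each array but normal brain replicate 2, with the largest adjusted p of those without normal brain replicate 3 (-1.72, adjusted p = 0.122). A second probe set of Rab38 gave -1.01 and was not called. Platelet genes, set beside it because platelets hold such organelles, summed to 5044 to 6085 in Gl261 and 8254 to 9173 in normal brain, with 1 of 4 tested genes lower. That gene, Pf4, made up nearly all of the sum. Itga2b went the other way without overlap (1.58, limma adjusted p = 0.0951) and was not called. Their part in the Rab38 values was not tested.

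Rab32, the partner gene, had 12.04, 11.99, 12.16 and 12.36 in Gl261 and 11.91, 12.15 and 12.41 in normal brain. Its values overlapped and its change of -0.02 had a 95% confidence interval of -0.36 to 0.33. Rab44, a large Rab protein of blood cells, had 8.21, 8.39, 8.55 and 8.77 in Gl261 and 8.36, 6.66 and 5.54 in normal brain. Its difference of 1.63 (SE 0.59, limma adjusted p = 0.101) depended on normal brain replicate 1, without which it was called at 2.38 (adjusted p = 0.0181). Rab37, a gene of secretory granules, was at 1.22 (SE 0.68) and not called. The changes of Rab3a, Rab3d, Rab27a, Rab27b and Rab29, most of them genes of granule release, lay between -0.41 (Rab3d) and 0.85 (Rab27b), and none was called.

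Of the 2 tested genes outside these groups neither was called by limma (0%, beside 10.1% of all tested genes). An unadjusted p under 0.05 was reached by 1 (Rab28), and here too the share over all genes was not counted. Rab28, which acts at the cilium, had 10.39, 10.39, 10.19 and 10.05 in Gl261 and 9.25, 9.57 and 9.95 in normal brain. The groups did not overlap (0.67, SE 0.22, limma adjusted p = 0.0763). Rab23, a gene of ciliary signalling, was at 0.44 with an SE of 0.54. The 8 genes left out by the low-signal cutoff were Rab3b, Rab3c, Rab9b, Rab17, Rab25, Rab26, Rab33a and Rab39b. Of the 51 tested genes 47 were above background on all 7 arrays, and Rab15, Rab30, Rab36 and Rab37 were not.

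**Figure D3:**
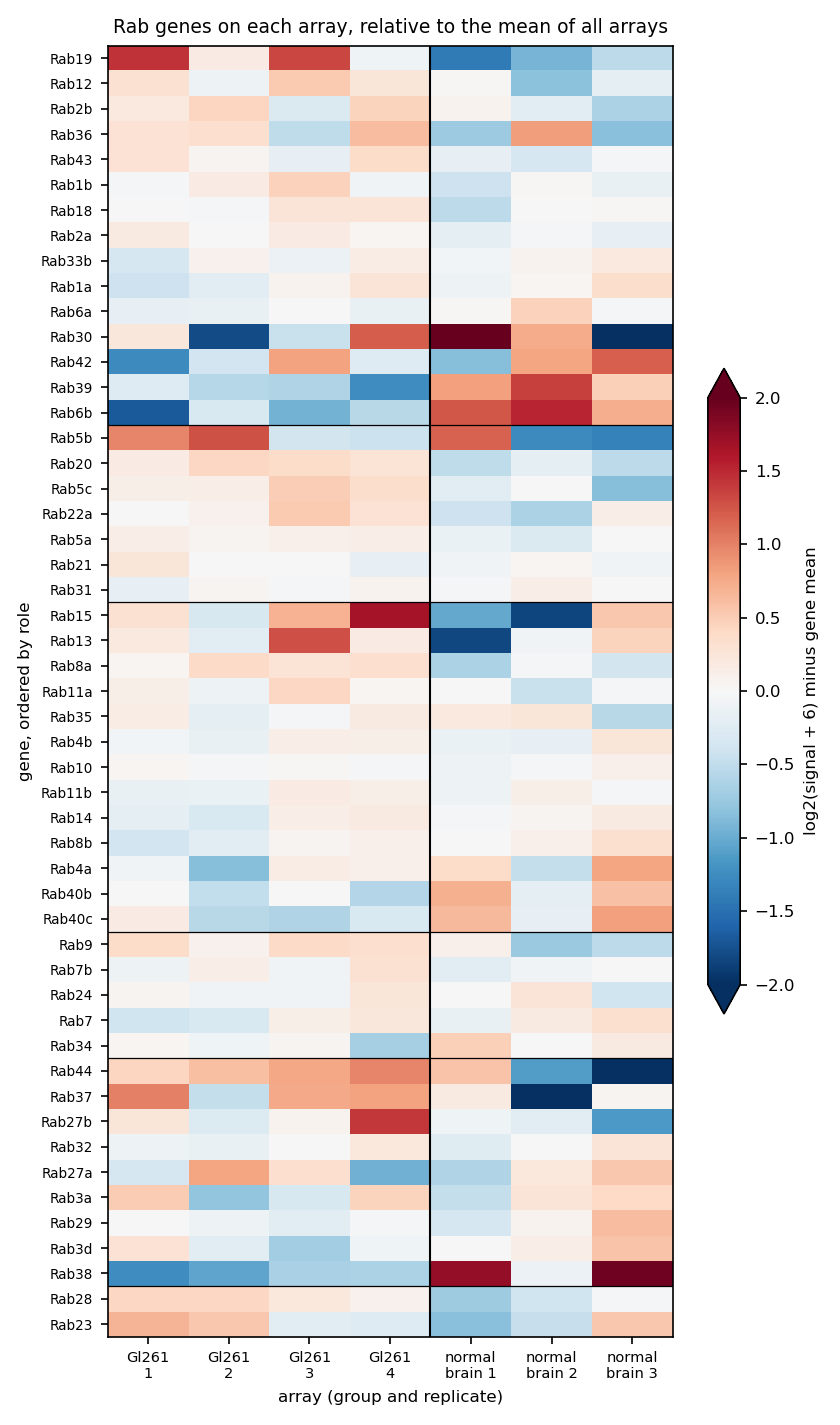
Log2(signal + 6) of the 51 tested Rab genes on each array minus the gene's mean over the 7 arrays, genes in rows by role and arrays in columns with Gl261 left of normal brain, colours ending at -2 and 2. Rab6b, Rab39 and Rab38 are blue on all Gl261 arrays, while low-signal genes such as Rab30 and Rab5b vary as much within a group as between groups.

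Where a gene had several probe sets, these often differed. In all 103 Rab probe sets passed the cutoff, and 29 genes had more than 1 of them. In 18 of the 29 genes the probe sets had log2 fold changes of both signs. How often this was so over all genes was not counted, so it is not read as a trait of the Rab genes. Tested each by itself, 806 probe sets of the whole array were called higher in Gl261 and 667 lower. Their share of all tested probe sets was not counted, so the counts of Rab probe sets are not read as a result about the family. Among the called ones 4 higher and 2 lower were Rab probe sets. Besides the second probe set of Rab7 these included another probe set of Rab2a, which had a mean of 11.49 in Gl261 and 10.72 in normal brain (limma log2 fold change 0.77, adjusted p = 0.0241). They also included another probe set of Rab3d, a gene of secretory granules, with a mean of 8.03 in Gl261 and 6.02 in normal brain (2.01, adjusted p = 0.0259 in limma), while the chosen probe set of that gene gave -0.41. Affymetrix probe sets lie at different places in a transcript, and a sign of RNA quality differed between the groups. The 3' to 5' signal ratio of Gapdh was 1.75 ± 0.127 in Gl261 (SD, n = 4) and 2.41 ± 0.0243 in normal brain (SD, n = 3), and the exact permutation p (two-sided) was 0.0286. For Actb it was 1.42 ± 0.0715 in Gl261 and 1.57 ± 0.116 in normal brain (exact permutation p = 0.143). Their part in the disagreement of probe sets was not tested.

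**Figure D4:**
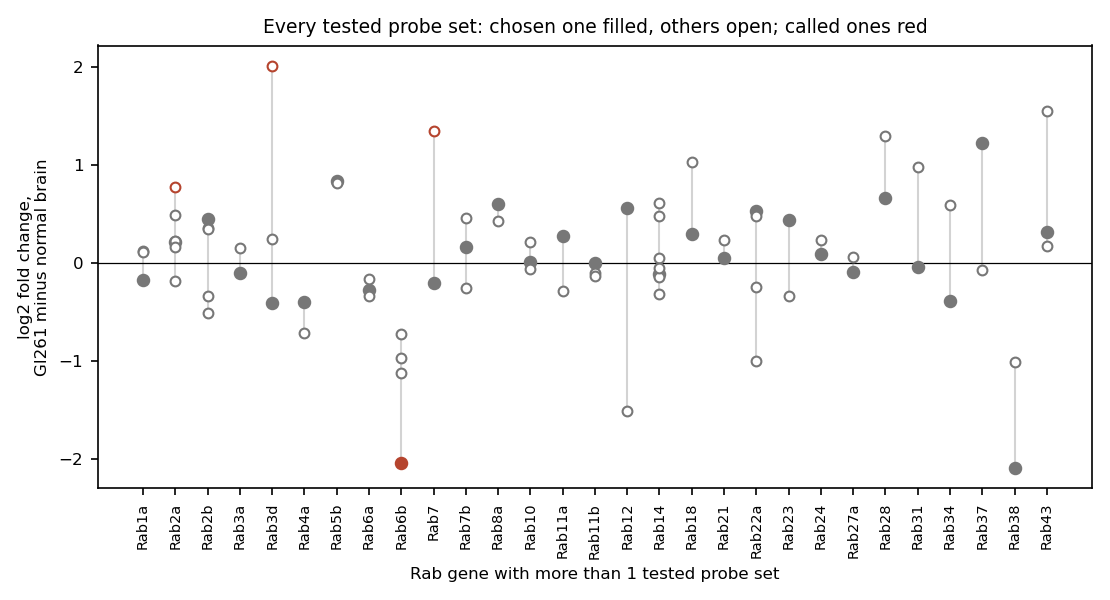
Log2 fold change, Gl261 minus normal brain, of each tested probe set of the 29 Rab genes with more than 1, with the probe set that stands for the gene filled and the others open, and red for those called when every probe set is tested by itself. Rab7, Rab2a and Rab3d have called probe sets beside chosen ones that were not called, and all 4 probe sets of Rab6b lie under 0.

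The proteins that load, turn off and use Rab GTPases were counted as well. Of 171 listed genes 159 were on the array and 149 were tested, with 6 higher and 3 lower in Gl261, 6.04% called beside 10.1% of all genes. Among 44 tested exchange factors 2 were higher and 1 lower (6.82% called, beside 10.1% of all tested genes). Dennd2a, whose human protein activates Rab9, had 8.61, 8.47, 8.37 and 7.87 in Gl261, against 6.70, 6.33 and 6.48 in normal brain. It was higher without overlap (limma log2 fold change 1.83, SE 0.42, adjusted p = 0.0185). Its second probe set was called too (3.00, adjusted p = 0.0291 when limma was fitted to all probe sets). The normal brain mean of that probe set, 3.96, was under the cutoff of 4.93. It was thus tested only through its Gl261 signal and adds no support. The call of the chosen probe set was lost without Gl261 replicate 1 (adjusted p = 0.0623) and without Gl261 replicate 3 (0.0632). Dennd4c, an exchange factor for Rab10, had a log2 fold change of 1.15 (adjusted p = 0.048 in limma), a call lost in 6 of the 7 settings that left out 1 array.

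Hps1, which with Hps4 forms the exchange factor of Rab32 and Rab38, had 7.66, 7.36, 7.01 and 7.45 in Gl261 and 8.75, 9.37 and 8.87 in normal brain. It was lower without overlap (limma log2 fold change -1.63, SE 0.38, adjusted p = 0.0202). The call was lost without normal brain replicate 2 (adjusted p = 0.0637) and without Gl261 replicate 3. Its 2 other tested probe sets gave 0.48 and -0.39, and the mean of its probe sets was not called (-0.40, adjusted p = 0.542). Hps4 had a log2 fold change of -0.57 (adjusted p = 0.137 in limma) and was not called.

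Among 34 tested GTPase-activating proteins 2 were higher and none was lower (5.88% called, beside 10.1% of all tested genes). Called or not, 14 had positive and 20 had negative log2 fold changes. Tbc1d10a, whose human protein acts on Rab27a and Rab35, had 10.11, 9.74, 9.86 and 10.18 in Gl261 and 9.10, 9.06 and 8.28 in normal brain (limma log2 fold change 1.16, adjusted p = 0.0202). Tbc1d16, whose human protein acts on Rab4a, had 9.49, 9.10, 9.32 and 9.63 in Gl261 and 8.28, 8.26 and 8.39 in normal brain (1.08, adjusted p = 0.031 in limma). Neither gene's groups overlapped. Both calls were lost without Gl261 replicates 1, 3 or 4, each left out alone, and Tbc1d16 also lost its call without normal brain replicates 1 or 2.

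Among 62 tested effectors, the proteins that GTP-bound Rabs recruit, 2 were higher and 1 was lower (4.84% called, beside 10.1% of all tested genes). Myo5a, a myosin that carries organelles bearing Rab27a and other Rabs, had 11.21, 11.74, 11.15 and 11.42 in Gl261 and 11.96, 12.63 and 12.50 in normal brain. It was lower without overlap (limma log2 fold change -0.99, SE 0.20, adjusted p = 0.0105) and was called without any 1 array. Its 2 other probe sets gave smaller changes of -0.48 and -0.52, and neither was called by itself (adjusted p = 0.114 and 0.173 in limma). Myo5b, the related myosin of recycling endosomes that binds Rab11, had 6.82, 7.15, 7.05 and 5.75 in Gl261 and 4.89, 4.84 and 3.35 in normal brain, where replicate 3 was under background. It was higher (2.33, SE 0.59, adjusted p = 0.028 in limma) in low signal, and its other 2 probe sets were under the cutoff. The normal brain mean of the chosen probe set, 4.36, was also under the cutoff of 4.93, so Myo5b was tested only through its Gl261 signal. Without the filter the call was lost (adjusted p = 0.0601 in limma). It was also lost without normal brain replicate 3 and without Gl261 replicates 1, 2 or 3, each left out alone, with adjusted p-values of up to 0.0839. Gorasp2, a Golgi stacking protein, had a log2 fold change of 0.93 (adjusted p = 0.0238 in limma) and 0.93 in its second probe set, which was not called by itself (adjusted p = 0.111). The call was lost in 5 of 19 alternative settings, among them those without Gl261 replicate 1 (adjusted p = 0.0761), without Gl261 replicate 3 (0.0673) and without normal brain replicate 3 (0.0613).

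Of the 9 tested genes for lipid attachment and membrane extraction 1 was lower (11.1% called, beside 10.1% of all tested genes). Chml, one of the escort proteins that present new Rab proteins for lipid attachment, had 8.75, 9.42, 8.64 and 8.45 in Gl261 and 10.25, 10.74 and 9.37 in normal brain. Gl261 replicate 2 overlapped normal brain replicate 3, and the call (limma log2 fold change -1.30, SE 0.35, adjusted p = 0.037) was lost in 5 of the 7 settings that left out 1 array. Its partner gene Chm was at -0.21 and Gdi2, which extracts Rab proteins from membranes, at -0.03, and neither was called. Counts over these lists also moved with single arrays, from 0 to 8 higher and from 1 to 5 lower genes. With Gl261 replicate 1 left out 0 genes were higher. With Gl261 replicate 3 left out 0 were higher and 1 was lower, and with Gl261 replicate 4 left out 3 were higher. Leaving out Gl261 replicate 2, or normal brain replicate 3, gave 5 lower genes, and leaving out normal brain replicate 1 gave 8 higher.

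**Figure D5:**
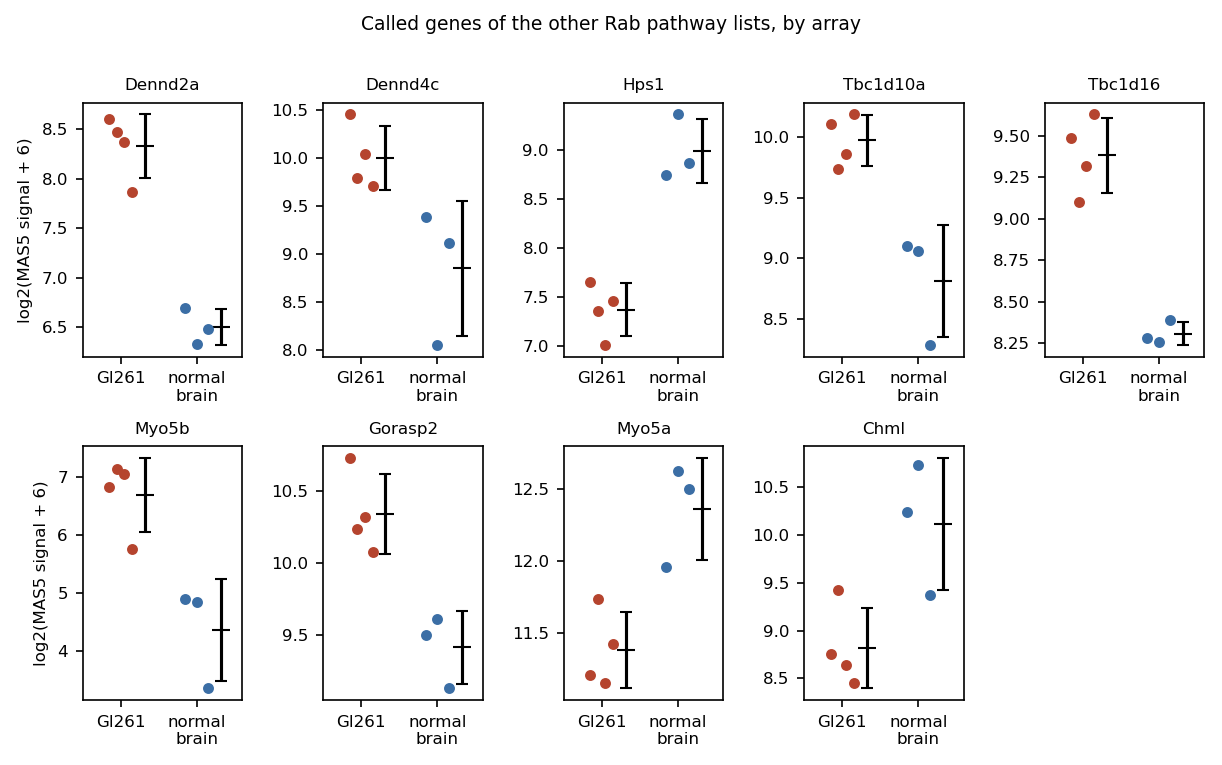
Log2(MAS5 signal + 6) on each array for the 9 called genes among exchange factors, activating proteins, effectors and lipid attachment genes, Gl261 in red and normal brain in blue, with mean and SD in black (4 and 3 arrays, axes do not start at 0). Dennd2a, Dennd4c, Tbc1d10a, Tbc1d16, Myo5b and Gorasp2 lay higher in Gl261, Hps1 and Myo5a lay lower on every Gl261 array, and Chml overlapped.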

How the data were processed

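The authors deposited 1 signal intensity per probe set and array on a linear scale, made with MAS5 per the submitters' processing notes. The authors had scaled each array to a trimmed mean of about 500, as the values show, and no further scaling was applied. Neither the MAS5 version nor its detection calls are stated in the sources used here. No column belonged to an unknown sample (0 columns). Of 45101 probe sets 34945 had 1 symbol in the platform annotation, 932 several and 9160 none, and 64 were controls.

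Signals were turned into log2(signal + 6). The added 6 is their 20th percentile and makes the fold changes of low genes too small. A gene was tested where its mean was above 4.93, the 40th percentile over probe sets. All 7 arrays were fitted with limma 3.58.1 in R 4.3.3 (eBayes with trend, two-sided), without covariates, and with Benjamini-Hochberg adjustment over 12125 genes. Background was the 95th percentile of 27 unspiked control probe sets, 4.19 to 4.70 on the log2 scale. Pairs of genes and ratios of control probe sets were compared by exact permutation of arrays. The fit was tested on simulated data. Plots come from matplotlib 3.10.9 (Python 3.11.15).

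The members, the lists and the tests were chosen with earlier results of these data known. Every called Rab gene, the 6 with the highest mean signal and the called genes of each pathway list were named, and the other Rab genes were given by value or by range. Rab15, Rab23, Rab24, Rab34, Rab19, Rab44, Rab2a, the Rab5 genes, Rab8a, Rab28, Rab32, Rab6a, Rab10, Rab21, Rab22a, Rab31, Rab37, Hps4, Chm and Gdi2 were described after their values were seen. Alternatives were other pseudocounts (1 and 58), filters, scalings, variance models and weights, the replicate number as a block, other uses of probe sets, and leaving out arrays. Those for pathway genes and gene pairs were added after seeing the data. Promoter sequences are from RefSeq, and no probe set position was used. Of the marker lists not given with the results, oligodendrocyte lineage genes had 3 of 5 tested members higher and 1 lower in Gl261, endothelial genes 3 of 7 lower, T and NK cell genes 3 of 7 higher, epithelial genes 2 of 4 higher, and pituitary and choroid plexus genes 2 of 3 lower. Astrocyte genes had none of 6 called.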

Additional observations from a re-analysis of the deposited data

Results flagged for a closer look

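In 3 of 68 sets of 4 Gl261 values, those of the 59 Rab genes and 9 called pathway genes, 1 array stood far from the other arrays by Dixon's test, and chance gives about 1 in 20. Rab37 was at 6.11 in Gl261 replicate 2, against 7.35 to 7.60 on the other Gl261 arrays. Rab39b, which was not tested for its low signal, was at 7.80 in Gl261 replicate 4, against 4.70 to 5.07 on the others. Rab6a was at 11.73 in Gl261 replicate 3, against 11.55 to 11.57 on the others. None of these genes was called.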

How the results depend on the processing

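The median over Rab genes stayed positive in all 19 alternative settings (0.05 to 0.14), while the counts of called genes moved. Of the 46 Rab genes not called 40 were called in no setting, 5 were called in some in the same direction, and Rab7 reversed with the mean of all probe sets (0.57, adjusted p = 0.0467). All genes called, 1227, became 810 with median centring and 455 with variances that did not follow the signal, and numbered 542 to 1171 when 1 array was left out. The 2 Rab genes called higher became 1 with a pseudocount of 1, 1 without the filter, 4 with the filter at the 60th percentile, 0 with median centring, 0 with variances that did not follow the signal, 1 with array weights, 4 with the mean of all probe sets, 4 with every probe set by itself, and 0 to 3 without 1 array. The 3 called lower became 1 with the mean of all probe sets, 1 without normal brain replicate 1 and Gl261 replicate 2 together, and 1 to 2 without 1 array. The causes were not tested.

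With the replicate number as a block, which leaves Gl261 replicate 4 without a partner and so without weight, 1004 genes were called, of them 1 Rab gene higher and 1 lower, and the Rab median was 0.08. Deviations of same-numbered arrays from their group means had correlations of 0.0792, -0.00754 and 0.031, and not every array correlated best with its own number. These values show no clear pairing by number, but 4 and 3 arrays are too few to settle it. With the block Rab39 (-1.37, adjusted p = 0.0602), Rab38 (-2.18, 0.064) and Rab9 (0.68, 0.0603) were not called. Genes near background (4.19 to 4.70) and 4 and 3 arrays limit what can be called: the SE over tested Rab genes was 0.13 to 1.03.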
